A study of Homo sapiens with 4 samples.

Results

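Mitochondrial ribosomal protein genes were taken from the crosslink site lists of an improved individual-nucleotide resolution UV crosslinking and immunoprecipitation (iCLIP) experiment on PDCD4, as all genes whose symbol in the authors' site label starts with MRPL or MRPS followed by a digit, pseudogene symbols left out. This gave 74 genes, 48 MRPL and 26 MRPS, of the 14416 genes with a listed site. A further 4 annotated protein-coding genes of the family, MRPL41, MRPS2, MRPS24 and MRPS34, had no listed site in either list, and no antisense gene carrying such a symbol was listed.

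The experiment used wild-type MCF10A cells, an untransformed human breast epithelial line, grown in medium with horse serum, epidermal growth factor, insulin, hydrocortisone and cholera toxin. RNA crosslinked by UV light was recovered either with an antibody against PDCD4, an RNA-binding tumour suppressor that inhibits the helicase eIF4A, or with an isotype IgG as background, in 2 replicates each, and the comparison asks which RNAs PDCD4 contacts beyond that background. The deposited lists pool the replicates, so no spread between replicates could be measured and no test was run on any value below. The PDCD4 list held 158922 sites with 409308 cDNAs and the IgG list 111361 sites with 276139 cDNAs. All 8 epithelial marker genes examined, among them KRT5 and KRT7, had listed sites, and none of 6 markers of blood, endothelium or liver did.

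Mitoribosomes are the ribosomes inside mitochondria. They translate the few messages of the mitochondrial genome, all of which encode subunits of the respiratory chain and ATP synthase, while every one of their own proteins is encoded in the nucleus, translated in the cytosol and imported. MRPL genes are named for the large subunit, which joins amino acids and holds the peptide exit tunnel. MRPS genes are named for the small subunit, which reads the mRNA. Genes were assigned to a subunit here by symbol alone. Many mitoribosomal proteins descend from bacterial ribosomal proteins and others are found only in mitochondria.

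Each site is 1 nt wide and its score is the number of cDNAs that ended there. Scores on the family's transcripts were low, with a median of 2 in each list and a highest score of 6. A single site exceeded 5 in each list, with PDCD4 in the coding sequence of MRPS15. The exonic PDCD4 sites with 5 or more cDNAs and the exonic IgG site with 5 cDNAs are shown so that the sequence contacted can be read beside the counts. Each is a 29-nt window of GRCh38 in the sense of the transcript, 5′ to 3′, with the crosslinked base in capitals.
MRPS15, PDCD4, 6 cDNAs, coding sequence, chr1:36460754-36460782, minus strand: caacagaaggagauGcuaaaaaucaagca
MRPL14, PDCD4, 5 cDNAs, coding sequence, chr6:44114031-44114059, minus strand: acuggccaucaaggGacagaagaaaaagg
MRPL47, PDCD4, 5 cDNAs, coding sequence, chr3:179598733-179598761, minus strand: cugaaagaaagaaaCaugcuucuaacccu
MRPS16, PDCD4, 5 cDNAs, coding sequence, chr10:73250859-73250887, minus strand: gcagaagcuacagaUacagaggcuacaga
MRPS23, PDCD4, 5 cDNAs, coding sequence, chr17:57839869-57839897, minus strand: cuugagugucagacCacagacugcguugg
MRPL55, PDCD4, 5 cDNAs, 5′UTR, chr1:228109207-228109235, minus strand: ccucgucccuggucUuaguuccaccgggc
MRPS6, PDCD4, 5 cDNAs, 3′UTR, chr21:34142894-34142922, plus strand: ugaagagcaaaacuUauaauaccuccugg
MRPL42, IgG, 5 cDNAs, 3′UTR, chr12:93501409-93501437, plus strand: uuuuucuuuuucuaUuuuaguguuucauu
The MRPL42 window also holds the PDCD4 sites of that 3′UTR between positions 93501411 and 93501414, a few bases upstream of the IgG site. Of these 8 crosslinked bases 4 were uridine, 2 guanosine and 2 cytidine.

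As a set, the mitoribosomal protein genes took nearly the same share of both lists. They held 345 sites and 847 cDNAs with PDCD4, 0.207% of the list's cDNAs, and 210 sites and 549 cDNAs with IgG, 0.199%. The log2 ratio of these shares, PDCD4 over IgG, was 0.06, with a 95% counting interval of -0.10 to 0.22. Intervals here and below are exact binomial for ratios and Wilson for shares, and cover counting error only, since cDNAs at a site and sites of a gene are not independent. No member was among the most covered genes of either list: the leading member ranked 2491st of all genes by PDCD4 cDNAs and 1323rd by IgG cDNAs. The median member had 7 PDCD4 and 3 IgG cDNAs, against 12 and 8 over all listed genes.

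The cytosolic ribosomal protein genes, which encode the proteins of the cytoplasmic ribosome, gave a different value. Their 79 listed genes held 2707 PDCD4 and 925 IgG cDNAs, a log2 ratio of 0.98 (0.87 to 1.09), an interval that does not overlap that of the mitoribosomal genes. The 77 nuclear genes of the respiratory chain, whose products work beside those the mitoribosome makes, held 1015 and 631 cDNAs, a log2 ratio of 0.12 (-0.03 to 0.26). Per kb of canonical mature transcript, PDCD4 cDNAs on that transcript were 3.14 for mitoribosomal, 4.43 for respiratory chain and 15.9 for cytosolic ribosomal protein genes, and IgG cDNAs 1.38, 1.05 and 4.66. RNA abundance was not measured in these lists, so levels per kb cannot be separated from how much of each mRNA the cells held.

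The near-equal total joined a higher exonic and a lower intronic share with PDCD4. Exonic sites of the family, those in coding sequence or UTRs, held 481 PDCD4 and 215 IgG cDNAs, a log2 ratio of 0.59 (0.36 to 0.83), and intronic sites 306 in each list, a log2 ratio of -0.57 (-0.80 to -0.33). Coding sequence had 233 and 74 cDNAs, a log2 ratio of 1.09 (0.70 to 1.48), the 5′UTR 43 and 12, at 1.27 (0.32 to 2.33), and the 3′UTR 205 and 129, at 0.10 (-0.22 to 0.43). Over all listed genes the same ratios were 0.62 for exonic, -0.43 for intronic, 1.11 for coding, 0.70 for 5′UTR and 0.22 for 3′UTR cDNAs, so every one of the family's intervals for these regions included the value over all genes. Both comparison families had a higher exonic ratio than the mitoribosomal genes. It was 1.13 (0.99 to 1.27) for cytosolic ribosomal protein genes and 1.37 (1.12 to 1.63) for respiratory chain genes. Neither interval overlapped the 0.36 to 0.83 of the mitoribosomal genes. Cytosolic ribosomal protein genes also had a higher intronic ratio, 0.09 (-0.15 to 0.34), and respiratory chain genes a higher coding ratio, 1.83 (1.48 to 2.19).

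**Figure D1:**
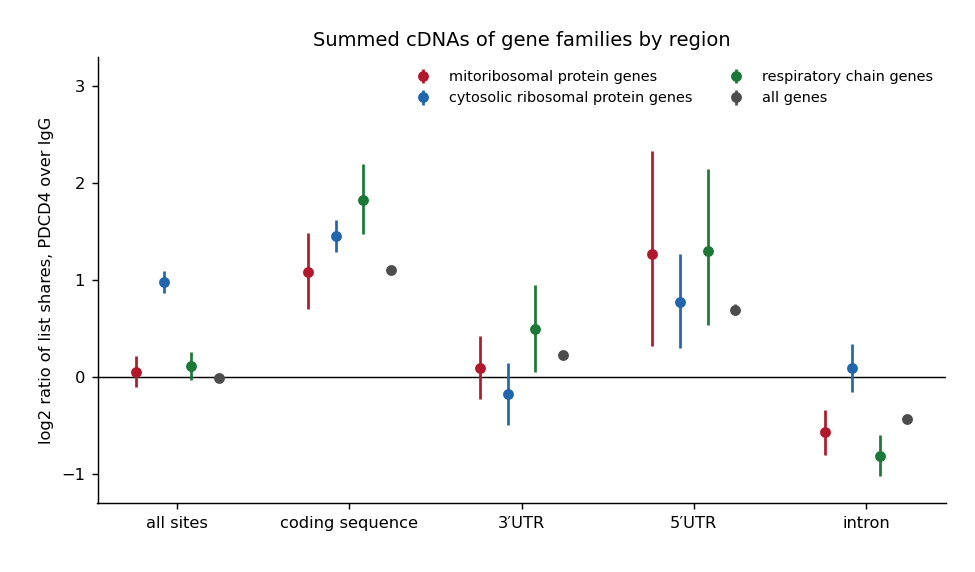
Log2 ratio of list shares, PDCD4 over IgG, for the summed cDNAs of 4 gene groups at all sites and by region, with 95% counting intervals as bars. The mitoribosomal points lie near 0 over all sites, at 1.09 in coding sequence and at -0.57 in introns, close to the points for all genes.

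Counted as sites, 25.3% of the family's PDCD4 sites (87 of 344, 20.99 to 30.1%) were coding. Introns held 36.9%, the 3′UTR 26.5%, noncoding exons 6.69% and the 5′UTR 4.65%. With IgG, 11.96% were coding (25 of 209, 8.23 to 17.1%), 57.9% were intronic and 22.97% lay in the 3′UTR. The coding share was thus higher with PDCD4 than with IgG, and the intervals do not overlap. In all other genes coding sites were 20.5% with PDCD4 and 9.54% with IgG, and intronic sites 51.1% and 67.3%. When positions that are intronic in any transcript were counted as introns, the PDCD4 coding share was 18.3%. A further 1 site in each list, labelled MRPL53 with PDCD4 and MRPS5 with IgG, lay outside the annotation of its gene used here.

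**Figure D2:**
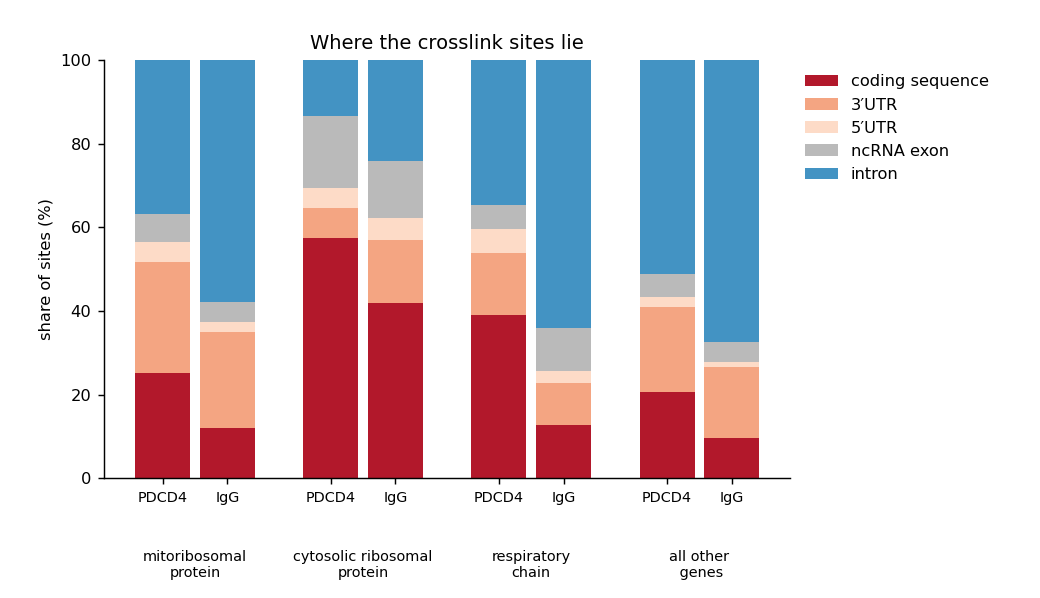
Share of crosslink sites (%) in coding sequence, 3′UTR, 5′UTR, noncoding exons and introns, for mitoribosomal protein genes, cytosolic ribosomal protein genes, respiratory chain genes and all other genes, in the PDCD4 and the IgG list. Introns take 36.9% of mitoribosomal sites with PDCD4 and 57.9% with IgG, and cytosolic ribosomal protein genes have the tallest coding segment, 57.3% with PDCD4.

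Single members differed widely. Of the 41 members with 10 or more cDNAs over both lists, 15 were at least 2-fold higher in PDCD4 by share and 9 at least 2-fold lower. Over all 9594 genes with that many cDNAs, 20.9% were at least 2-fold higher and 18.6% at least 2-fold lower. With the counting interval wholly above 0, 9 members were higher, against 19% of all genes, and with it wholly below 0, 8 were lower, against 21.5%, so by this rule the members were called about as often as genes in general. The median log2 ratio with 1 cDNA added to each count was 0.86 over all 74 members and -0.07 over all genes, but 0.07 and -0.08 once genes under 10 cDNAs were left out. The larger median rested on members with few cDNAs: 25 members were listed with PDCD4 alone, 22 of them with under 10 cDNAs, and 5 with IgG alone, MRPL10, MRPL28, MRPL46, MRPL54 and MRPS26, with 14 cDNAs in all. Over all 14416 listed genes, 17.8% were listed with PDCD4 alone and 10.3% with IgG alone.

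**Figure D3:**
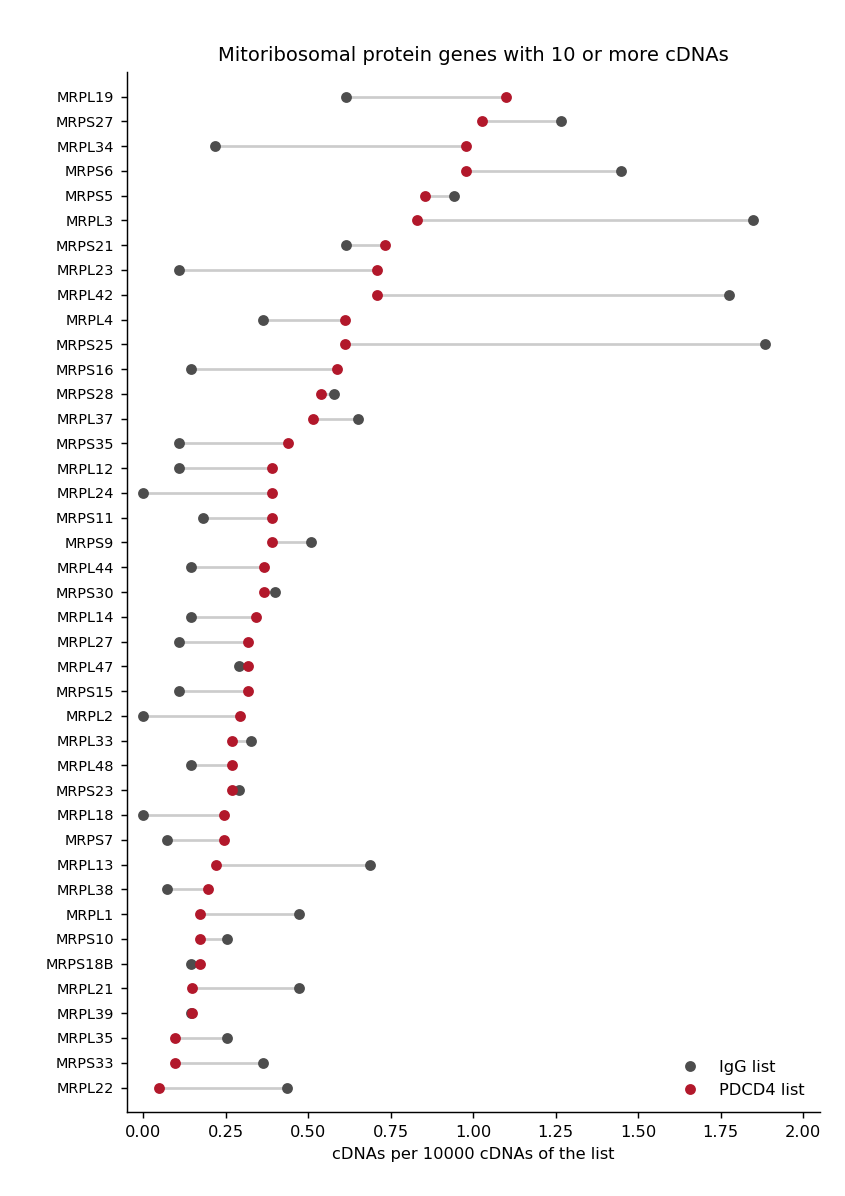
cDNAs per 10000 cDNAs of the list for the 41 mitoribosomal protein genes with 10 or more cDNAs over both lists, PDCD4 in red and IgG in grey, ordered by the PDCD4 value. MRPL19 leads with PDCD4 at 1.10, while MRPL3, MRPL42 and MRPS25 reach 1.77 to 1.88 with IgG.

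Among large subunit genes, MRPL19 had the most PDCD4 cDNAs. This gene of chromosome 2 encodes a protein related to bacterial L19 and had 45 PDCD4 cDNAs at 22 sites and 17 IgG cDNAs at 5 sites, a log2 ratio of 0.84 (0.00 to 1.73). Most of its PDCD4 cDNAs, 33, lay along its long 3′UTR, none at a site above 4 cDNAs. MRPL34, which encodes a small protein related to bacterial L34, had 40 PDCD4 cDNAs at 21 sites and 6 IgG cDNAs at 2 sites, a log2 ratio of 2.17 (0.92 to 3.70). Its signal was mainly intronic, 30 of the 40 PDCD4 cDNAs, and 9 PDCD4 and all 6 IgG cDNAs lay where the next 30 nt occur more than once in the genome.

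MRPL23 and MRPL4 carried coding sequence signal. MRPL23, at the rim of the peptide exit tunnel, had 29 PDCD4 cDNAs at 10 sites and 3 IgG cDNAs at a single intronic site, a log2 ratio of 2.71 (1.02 to 5.06), the highest among members with 20 or more cDNAs. Its exons held 12 PDCD4 cDNAs, 10 of them coding, and had no IgG site listed. MRPL4, which reaches into the exit tunnel, had 25 and 10 cDNAs, a log2 ratio of 0.75 (-0.35 to 1.98), with 22 of the 25 and 8 of the 10 in coding sequence, so its coding sequence had sites in both lists. MRPL24, another exit tunnel gene, had 16 PDCD4 cDNAs, MRPL2 had 12 and MRPL18 had 10, all of the last intronic, and none of these genes had an IgG site listed.

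The opposite order was found for MRPL3 and MRPL42. MRPL3, which encodes a protein of the region near the peptidyl transferase centre, had 34 PDCD4 cDNAs at 15 sites and 51 IgG cDNAs at 21 sites, a log2 ratio of -1.15 (-1.82 to -0.50). The difference lay mostly in its introns, with 10 against 33 cDNAs, while its exons had 19 and 16, a log2 ratio of -0.32 (-1.36 to 0.74). MRPL42, a protein found only in mitochondria, had 29 and 49 cDNAs, a log2 ratio of -1.32 (-2.04 to -0.63), and all its exonic cDNAs, 25 and 33, were in the 3′UTR. MRPL13 had 9 and 19 cDNAs, a log2 ratio of -1.65 (-2.97 to -0.43), all 19 of the IgG cDNAs intronic. MRPL22, an exit tunnel gene, had 2 and 12 cDNAs, a log2 ratio of -3.15 (-6.35 to -0.99). MRPL37, also found only in mitochondria, had 21 and 18 cDNAs, a log2 ratio of -0.35 (-1.32 to 0.65).

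Among small subunit genes, MRPS27, MRPS6 and MRPS5 had many cDNAs in both lists. MRPS27, a pentatricopeptide repeat protein, had 42 PDCD4 and 35 IgG cDNAs, a log2 ratio of -0.30 (-0.99 to 0.39). Its exons alone had 22 and 4, a log2 ratio of 1.89 (0.33 to 3.89), and its introns 20 and 28, so exon and intron pointed in opposite directions within a single gene. Without exonic sites whose next 30 nt are repeated in the genome, its exons had 18 and 4. MRPS6 had 40 cDNAs at 13 sites in each list, a log2 ratio of -0.57 (-1.24 to 0.10), nearly all intronic, and every one of these sites carried the label of an overlapping gene as well, so its reads cannot be assigned to MRPS6 alone. MRPS5, at the mRNA entry channel, had 35 and 26 cDNAs, a log2 ratio of -0.14 (-0.91 to 0.65), with 13 and 2 of them exonic, or 8 and 2 without 5′UTR sites whose next 30 nt are repeated in the genome.

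MRPS21, MRPS16, MRPS35 and MRPS15 had more exonic cDNAs with PDCD4 than with IgG. MRPS21 had 30 and 17 cDNAs, a log2 ratio of 0.25 (-0.65 to 1.20), of which 28 and 7 were exonic, or 22 and 4 without sites whose next 30 nt are repeated in the genome. Only 16 of its 28 exonic PDCD4 cDNAs lay on the canonical transcript, 14.7 per kb of it, compared with 18.1 per kb for MRPL4 and 17.8 for MRPL23. MRPS16, related to bacterial S16, had 24 cDNAs at 10 sites against 4 at a single site, a log2 ratio of 2.02 (0.48 to 4.0), all exonic. Of those 24, 9 lay where the next 30 nt occur more than once in the genome. Without them the counts were 15 and 4 and the log2 ratio 1.34. MRPS35 had 18 and 3 cDNAs, a log2 ratio of 2.02 (0.24 to 4.42), of which 8 and 0 were exonic. MRPS15, the gene of the strongest PDCD4 site, had 13 and 3, at 1.55 (-0.32 to 4.0). In exons MRPS15 had 9 and 3, at 1.02 (-0.99 to 3.54).

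MRPS25, whose product is found only in mitochondria, was the small subunit gene with the most IgG cDNAs. It had 25 PDCD4 cDNAs at 8 sites and 52 IgG cDNAs at 20 sites, a log2 ratio of -1.62 (-2.37 to -0.91). Its 3′UTR held 15 and 29 of them and its introns 10 and 23, and no coding site was listed, so its share was lower with PDCD4 in exons and introns alike. MRPS28 had 22 and 16 cDNAs, a log2 ratio of -0.11 (-1.10 to 0.92). All 16 of its IgG cDNAs and 12 of its 22 PDCD4 cDNAs lay at sites that carried the label of another gene as well. That ratio can therefore not be assigned to MRPS28 alone.

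**Figure D4:**
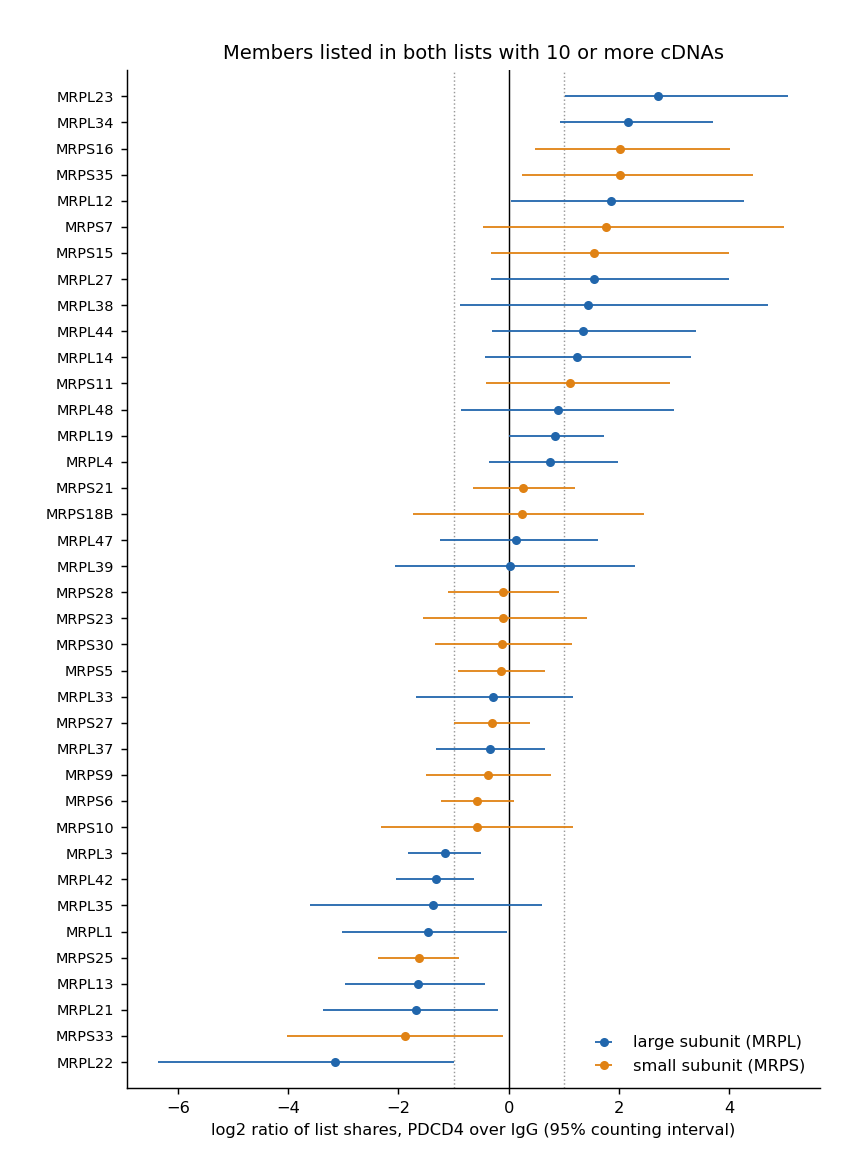
Log2 ratio of list shares, PDCD4 over IgG, with 95% counting intervals for the members with sites in both lists and 10 or more cDNAs, large subunit genes in blue and small subunit genes in orange. The dotted lines mark 2-fold differences. Values run from -3.15 for MRPL22 to 2.71 for MRPL23, and most intervals include 0.

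Restricting to exons, 22 members had 10 or more cDNAs, of which 12 were at least 2-fold higher in PDCD4 and 4 at least 2-fold lower. Over the 5867 genes with that many exonic cDNAs, 38.9% were higher and 11.1% lower by this measure. The counting interval lay above 0 for 6 members, MRPL19, MRPL23, MRPL34, MRPS16, MRPS21 and MRPS27, against 30.2% of all genes, and below 0 for 2, MRPL42 and MRPS25, against 7.41%. The 4 lower genes were MRPL35, MRPL37, MRPS10 and MRPS25. MRPS10 had 3 and 7 exonic cDNAs, or 3 and 3 without sites whose next 30 nt are repeated in the genome. MRPL42 and MRPS25 together held 62 of the family's 215 exonic IgG cDNAs, all in 3′UTRs. Without both genes the exonic log2 ratio of the family was 0.96 (0.69 to 1.23), a rise fixed by leaving out genes with low ratios.

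The counting intervals of the 2 subunits overlapped over all sites, in exons, in coding sequence and in introns. Such overlap does not show that the 2 subunits were alike. An interval of the difference itself was computed over all sites alone, not for exons, coding sequence or introns. MRPL genes together had 485 and 284 cDNAs, a log2 ratio of 0.20 (-0.01 to 0.42), and MRPS genes 362 and 265, at -0.12 (-0.35 to 0.12). Large minus small was 0.32 (0.01 to 0.63), and 0.18 (-0.16 to 0.51) without sites labelled with several genes. Their exonic ratios were 0.54 (0.24 to 0.85) and 0.67 (0.29 to 1.06), so the large subunit genes were not the higher ones in exons. In coding sequence alone the ratio was 0.79 (0.35 to 1.26) for MRPL and 1.82 (1.04 to 2.70) for MRPS genes. In introns it was -0.31 (-0.64 to 0.03) for MRPL and -0.84 (-1.17 to -0.50) for MRPS genes.

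By role, the 6 listed genes around the exit tunnel and membrane anchor (MRPL17, MRPL22, MRPL23, MRPL24, MRPL45 and MRPL47; MRPL4 is not in this list) had 70 and 23 cDNAs, a log2 ratio of 1.04 (0.34 to 1.79), with MRPL22 as the member going the other way. MRPL23 alone held 29 and 3 of the exit tunnel cDNAs, and the value without it was not computed. The 6 genes of the central protuberance, the knob of the large subunit that contacts the small one, had 44 and 11, at 1.43 (0.46 to 2.53). Only 15 and 3 of these cDNAs were exonic, at 1.75 (-0.07 to 4.18). Among these genes, all 8 PDCD4 cDNAs of MRPL38 carried several gene labels, and MRPL46 was listed with IgG alone. The 4 genes of the decoding site and mRNA channel had 67 and 33, at 0.45 (-0.17 to 1.10). Their exons had 34 and 4 cDNAs, at 2.52 (1.03 to 4.48), 13 and 2 of them from MRPS5. Their introns had 14 and 20, at -1.08 (-2.18 to -0.02). The 3 genes of the stalk, which recruits translation factors, had 18 and 6 cDNAs, 16 and 3 of them from MRPL12, the stalk protein itself. In exons, the 46 members listed here with a bacterial counterpart had 339 and 106 cDNAs, a log2 ratio of 1.11 (0.79 to 1.44), and the 28 others 142 and 109, at -0.19 (-0.56 to 0.19). Without MRPL42 and MRPS25 the latter value was 0.55 (0.04 to 1.08). Both genes belong to the latter group and have exonic intervals below 0, so leaving them out had to raise its value. The overlap with the former interval that results therefore decides nothing about the 2 groups. The first list includes MRPL55, with 5 cDNAs, although its product is classed as mitochondrial only.

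Along mature transcripts, PDCD4 sites of the family lay mostly in the last exon, 119 of 176 (67.6%, 60.4 to 74.1%), compared with 31.97% (28.4 to 35.8%) for cytosolic ribosomal protein genes and 38.6% (32.4 to 45.2%) for respiratory chain genes. With IgG the share was 77.9% (53 of 68) for the family, 41.2% for cytosolic ribosomal protein genes and 59.3% for respiratory chain genes. MRPL19, MRPL42, MRPS25 and MRPS16, which have long 3′UTRs, accounted for 43 of the 119, of which 40 were 3′UTR sites. Without these genes the share was 58.0% (49.5 to 66.1%), with other long transcripts such as MRPS23 kept. Median canonical transcript length was 1287.5 nt for the family, 869 nt for cytosolic ribosomal protein genes and 894 nt for respiratory chain genes. The part of transcript length in the last exon and the share over all genes were not computed. How far exon structure sets these shares was not tested. Within coding sequence divided into 5 equal parts from start to stop, the PDCD4 sites numbered 17, 16, 15, 12 and 25, so the last part held 29.4% (20.8 to 39.8%). In exons of 120 nt or more that are followed by an intron, 1 of 39 PDCD4 sites lay in the last 60 nt and 17 in the 60 nt before. With IgG the family had 0 and 2 of 8 such sites, too few to compare. Cytosolic ribosomal protein genes had 9 and 156 of 288 with PDCD4 and 2 and 48 of 72 with IgG.

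**Figure D5:**
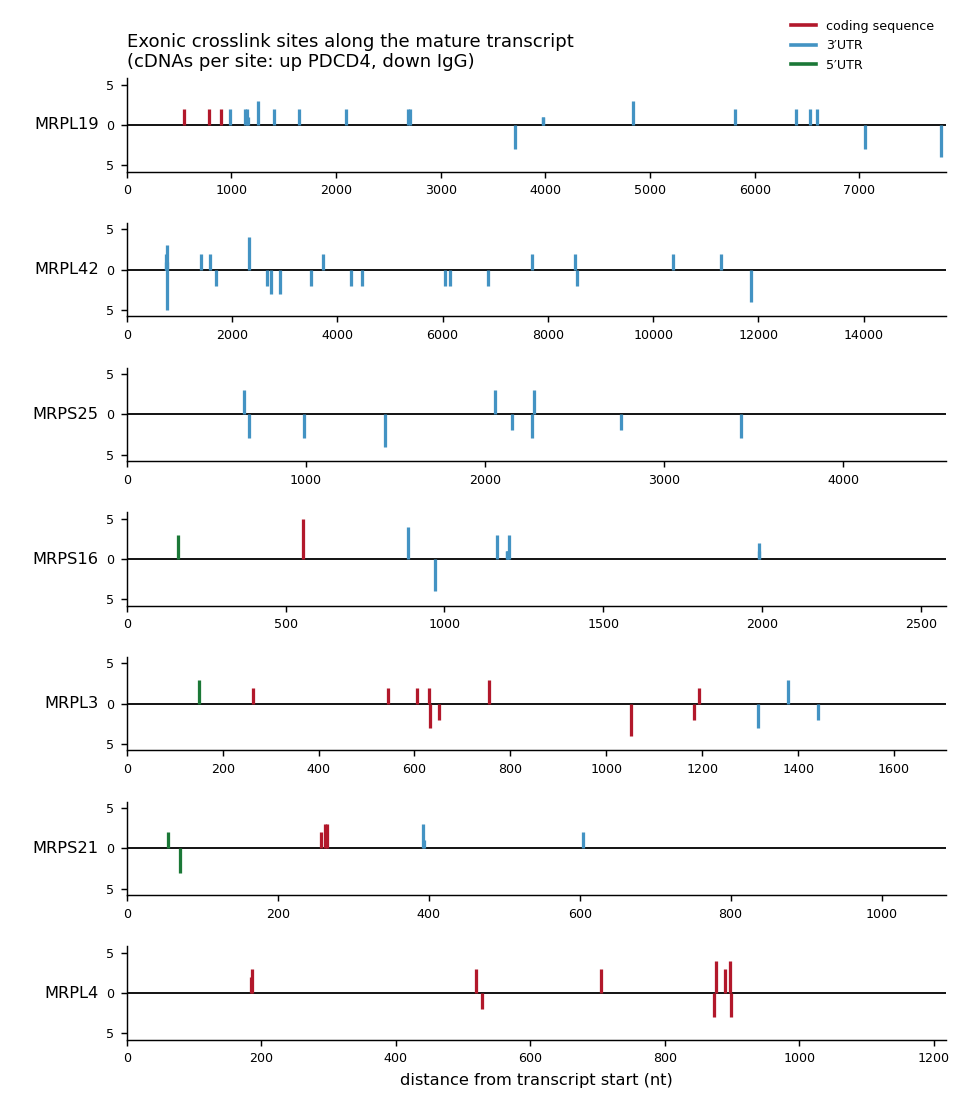
Exonic crosslink sites of 7 mitoribosomal protein genes along the canonical mature transcript, as distance from the transcript start in nt, with cDNAs per site drawn up for PDCD4 and down for IgG and coloured by region. Sites outside the canonical transcript are not drawn. MRPL19, MRPL42 and MRPS25 have sites spread through long 3′UTRs, while those of MRPL4 lie in coding sequence.

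Of coding sequence, 3′UTR and introns, coding sequence had the lowest share of PDCD4 sites at uridine, in the family as in all other genes. Uridine stood at 45.9% of exonic PDCD4 sites (89 of 194) and 43.1% of those of all other genes. Coding sites of the family were at uridine in 31.0% (27 of 87, 22.3 to 41.4%), and those of all other genes in 34.4%. The family's 3′UTR sites were at uridine in 58.2% (53 of 91, 48.0 to 67.8%), an interval that overlaps the intronic one, and those of all other genes in 52.5%. In introns uridine stood at 68.5% of the family's sites (87 of 127, 59.98 to 75.9%) against 50.0% in all other genes. Without MRPL34, where 14 of 17 intronic sites were at uridine, it stood at 66.4% (57.1 to 74.5%). The family's intronic IgG sites were at uridine in 50.4% (61 of 121), compared with 53.5% for other genes. Neighbouring sites were not independent: 21.7% of the family's PDCD4 sites and 9.52% of its IgG sites had another site of the same list within 20 nt, so these intervals are too narrow. For 36 of 345 PDCD4 and 24 of 210 IgG sites the next 30 nt occur more than once in the genome.

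No position of the family was listed in both files. Shared positions were rare over all genes too, 0.45% of the 158922 PDCD4 sites and 0.65% of the 111361 IgG sites, so their absence does not set the family apart. The methods state that positions found with IgG were subtracted from the PDCD4 replicates, but 721 positions of other genes were in both lists, and the part of the subtraction in the family's 0 was not tested. Within 20 nt of a PDCD4 site, an IgG site was listed for 17 of 345 (4.93%). The share over all genes was not computed for this measure.

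Summed over all sites, genes that work with the mitoribosome did not take a higher share of the PDCD4 list as groups. Their coding sequence and introns went in opposite directions, as in the family. The 15 mitochondrial translation factors had 282 and 225 cDNAs, a log2 ratio of -0.24 (-0.50 to 0.02), with 1.18 (0.52 to 1.89) in coding sequence and -0.85 (-1.24 to -0.45) in introns. LRPPRC, which stabilises mitochondrial mRNAs, led with 111 and 85, followed by the recycling factor MRRF with 41 and 43 and the elongation factor GFM1 with 36 and 16. The 23 listed assembly factors had 313 and 297, a log2 ratio of -0.49 (-0.73 to -0.26). Their leading genes were the RNA helicase DHX30 with 58 and 27, the rRNA methyltransferase METTL15 with 51 and 61, and the GTPase MTG2 with 32 and 15. Mitoribosomal proteins named under other symbols, of which 4 were listed, had 70 and 56 cDNAs, mostly from DAP3 with 55 and 39, then PTCD3 with 9 and 14 and AURKAIP1 with 4 and 3. In exons DAP3 had 20 and 2 cDNAs, the same order of exon and intron as MRPS27.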

How the data were processed

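Improved iCLIP was performed on MCF10A cells with PDCD4 antibody or IgG (2 replicates each). Using iCount and the genome of Ensembl release 88 (GRCh38), the authors mapped reads, subtracted IgG crosslink sites from the PDCD4 replicates, pooled replicates and called peaks. The deposited score is a raw count of cDNAs per 1-nt site, not normalized. Sites scoring 5 or less, which the methods drop, are still in the files and were kept. The iCount version and settings are not given in the sources used here.

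Scores were summed per gene label. A site labelled with several genes counted for each. Sums were divided by list totals (depths of 409308 and 276139 cDNAs). Log2 ratios have 95% exact binomial intervals and shares 95% Wilson intervals (the large minus small subunit difference, a normal approximation), covering counting error only. With 1 pooled list per antibody no test was possible. A gene counted as higher or lower at 2-fold among genes with 10 or more cDNAs over both lists. Regions came from GENCODE release 44 on the same build, over all transcripts, with coding sequence taken first, then 3′UTR, 5′UTR, noncoding exon and intron. The lists hold only sites that passed peak calling, so a gene without a site has no known floor. Windows of 29 nt and genome copies of the 30 nt from each site were read from the GRCh38 sequence. The window of 1 IgG site is not reported here.

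Members and gene lists were chosen with earlier results of these data known. Named genes were the 12 members with most PDCD4 cDNAs, the 5 highest and 5 lowest ratios among members with 20 or more cDNAs, members with a site above 5 or without sites, and the 3 leading genes of each other list. Further members were chosen after their values were seen. The region assignment and interval code was tested on simulated data. Python 3.11.15, pandas 2.3.3, scipy 1.17.1 and matplotlib 3.10.9 were used.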

Additional observations from a re-analysis of the deposited data

How the results depend on the processing

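The family's summed log2 ratio of 0.06 moved outside its counting interval under 2 of the alternative settings. It was -0.57 when list totals were taken over exons of protein-coding genes alone, which sets the whole family against exonic signal, and -1.96 with scores greater than 5, where 1 site per list remained and the median was also -1.96. The median of 0.86 became -0.08 with 5 cDNAs added to each count. With scores greater than 5 no member had 10 cDNAs, so no count of genes could be given, and the coding share was 100% of that single PDCD4 site. Counting positions intronic in any transcript as introns gave a coding share of 18.3%. The 15 members at least 2-fold higher became 9 with exonic totals, 5 with numbers of sites, 3 with clusters of sites within 20 nt, 26 with a minimum of 5 cDNAs and 5 with a minimum of 20. The 9 members at least 2-fold lower became 3 with numbers of sites, 3 with clusters and 5 with a minimum of 20. The exonic ratio of 0.59 became 0.96 without MRPL42 and MRPS25, and that of members without a bacterial counterpart became 0.55 in place of -0.19. This alternative, and the removal of sites whose next 30 nt are repeated in the genome (summed log2 ratio 0.08), were chosen after seeing the data. Over the 8 other settings that change which sites are counted or the totals, MRPL38 was the single member past 2-fold to change direction, without sites labelled with several genes: all 8 of its PDCD4 cDNAs carried the label of several genes. The large minus small difference was 0.28 (-0.03 to 0.59) with scores greater than 1 and 0.38 (-0.12 to 0.88) with numbers of sites. No paired analysis was possible because each list pools its replicates, and for the same reason no replicate could be left out. Members with under 10 cDNAs, 33 of 74, are too shallow for a ratio.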

Other observations

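Labels left out by the rule also held sites. The read-through gene URGCP-MRPS24 had 14 PDCD4 cDNAs at 3 sites and 39 IgG cDNAs at 16 sites, none exonic, while MRPS24 itself had no listed site. The pseudogenes MRPS31P4, MRPL45P2, MRPS31P5 and MRPL37P1 had 7 and 5, 3 and 4, 4 and 0, and 0 and 2 cDNAs with PDCD4 and IgG.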
